A study of Mus musculus with 18 samples.

Results

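The integrated stress response genes were 9 named rows of the deposited expression table, *Atf4*, *Ddit3*, *Trib3*, *Asns*, *Chac1*, *Psat1*, *Phgdh*, *Ddit4* and *Slc7a11*, out of 18659 genes in all. They were chosen by name, and each was read in 16 libraries against scrambled siRNA (scr) of the same replicate set. All 9 passed the filter on low values, by which the values of a gene had to add up to 10 or more over the fitted libraries.

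The cells were E14, a male line of mouse embryonic stem cells (mESCs) grown in serum (FCS) with LIF. They were transfected for 24 h with siRNA to *Stag1*, which encodes a subunit of cohesin. SP was a commercial siRNA pool. The 3p siRNAs, to the 3′ end of the transcript, were commercial ones whose numbers are also listed for SP, so SP and 3p were not independent reagents. The 5p siRNA was a single custom duplex to the 5′ end. SATS was an enzymatically derived siRNA to the 5′ end of transcripts that start at an upstream promoter. The luciferase siRNA was also enzymatically derived. SATS and scr thus differed in siRNA type as well as in target, and the part of each was not tested. These siRNAs leave residual *Stag1* RNA, so each group was a knockdown and not a null. Set 1 held scr and 3 SP libraries (1a, 1b and 1c), set 2 held scr, SP, 3p, 5p, SATS and untreated cells, and set 3 held scr, SP, 3p, 5p, SATS and luciferase siRNA. The study calls its replicates independent without saying whether they were separate cultures, so p-values measure the spread between these libraries, which may in part be technical. Not analysed here were 2 further libraries, from 2i medium.

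In the integrated stress response, 4 kinases that sense unfolded protein, amino acid shortage, double-stranded RNA or haem shortage phosphorylate the translation factor eIF2. General translation falls, while the mRNA of the transcription factor ATF4 is translated better. ATF4 and its partners then switch on genes for amino acid supply, tRNA charging and redox balance, and, with *Ddit3* (CHOP), genes that end the response or lead to cell death. ATF4 itself is set largely at translation, and RNA-seq reads only its mRNA and the mRNAs of its targets.

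*Stag1* fell in SP, 3p and 5p of sets 2 and 3 (adjusted p = 0.00103 to 0.0017, limma) and, in a fit that blocks on the set, in SATS (adjusted p = 0.0013, limma). Its normalised read count was 2016, 1876 and 2113 in scr of sets 1, 2 and 3, against 512, 627 and 660 in SP libraries 1a to 1c and 364.7 to 441.5 in the SP, 3p and 5p libraries of sets 2 and 3. SATS left 50.5% and 49.7% of scr. The 12 libraries of sets 2 and 3 held 32137666 to 45660840 reads on genes, and the 4 of set 1 held 9023224 to 14040830, of which 69.2% to 79.1% fell on *Rn45s* (pre-ribosomal RNA). Of the stem cell markers, 7 of 7 were read above 3 reads in every library. Their summed value in set 1 was 55180 in scr and 45589, 39831 and 31424 in SP 1a, 1b and 1c. The summed value of 6 primitive endoderm markers was 562.5 and 512.4 in scr and SP 1a of set 1 but 160.8 and 193.3 in SP 1b and SP 1c. In SP 1c only 2 of these 6 were above the limit of 3 reads. The summed value of 6 fibroblast markers was 2546 to 5625 in set 2 and 336.8 to 545.0 in set 3, with *Lum* at or near 0 in all libraries. *Col1a1* reached the highest value of them, 4627. The cells were grown on gelatin-coated plates and the paper names no feeders, so the source of this RNA is not known. That of 5 trophectoderm markers was 1087 to 1432 in set 2 and 518.1 to 689.3 in set 3. The part of these markers in the differences below was not tested. In bulk RNA, fewer cells of a type and less RNA per cell cannot be told apart.

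The 9 genes did not all move in the same direction in any knockdown, but more of them were lower than higher. In the fits of sets 2 and 3, the log2 difference from scr was negative for 8 of 9 in SP and 7 of 9 in 5p. It was negative for 6 of 9 in 3p and in SATS. Among the controls, 7 of 9 were below scr in the luciferase library and 5 of 9 in untreated cells. In no library were more than 5 of them above scr of the same set. *Ddit4* was higher than scr in 11 of 11 knockdown libraries and passed the test in SP of sets 2 and 3 where the fit blocked on the set, a call that was lost without any 1 of 4 libraries. In 5p, *Atf4* and *Asns* were the lowest of the 6 libraries in both sets, and were called against the controls only where untreated and luciferase libraries joined these. *Trib3*, *Asns* and *Psat1* were below scr in all 5 SP libraries and were not called in SP of sets 2 and 3.

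**Figure D1:**
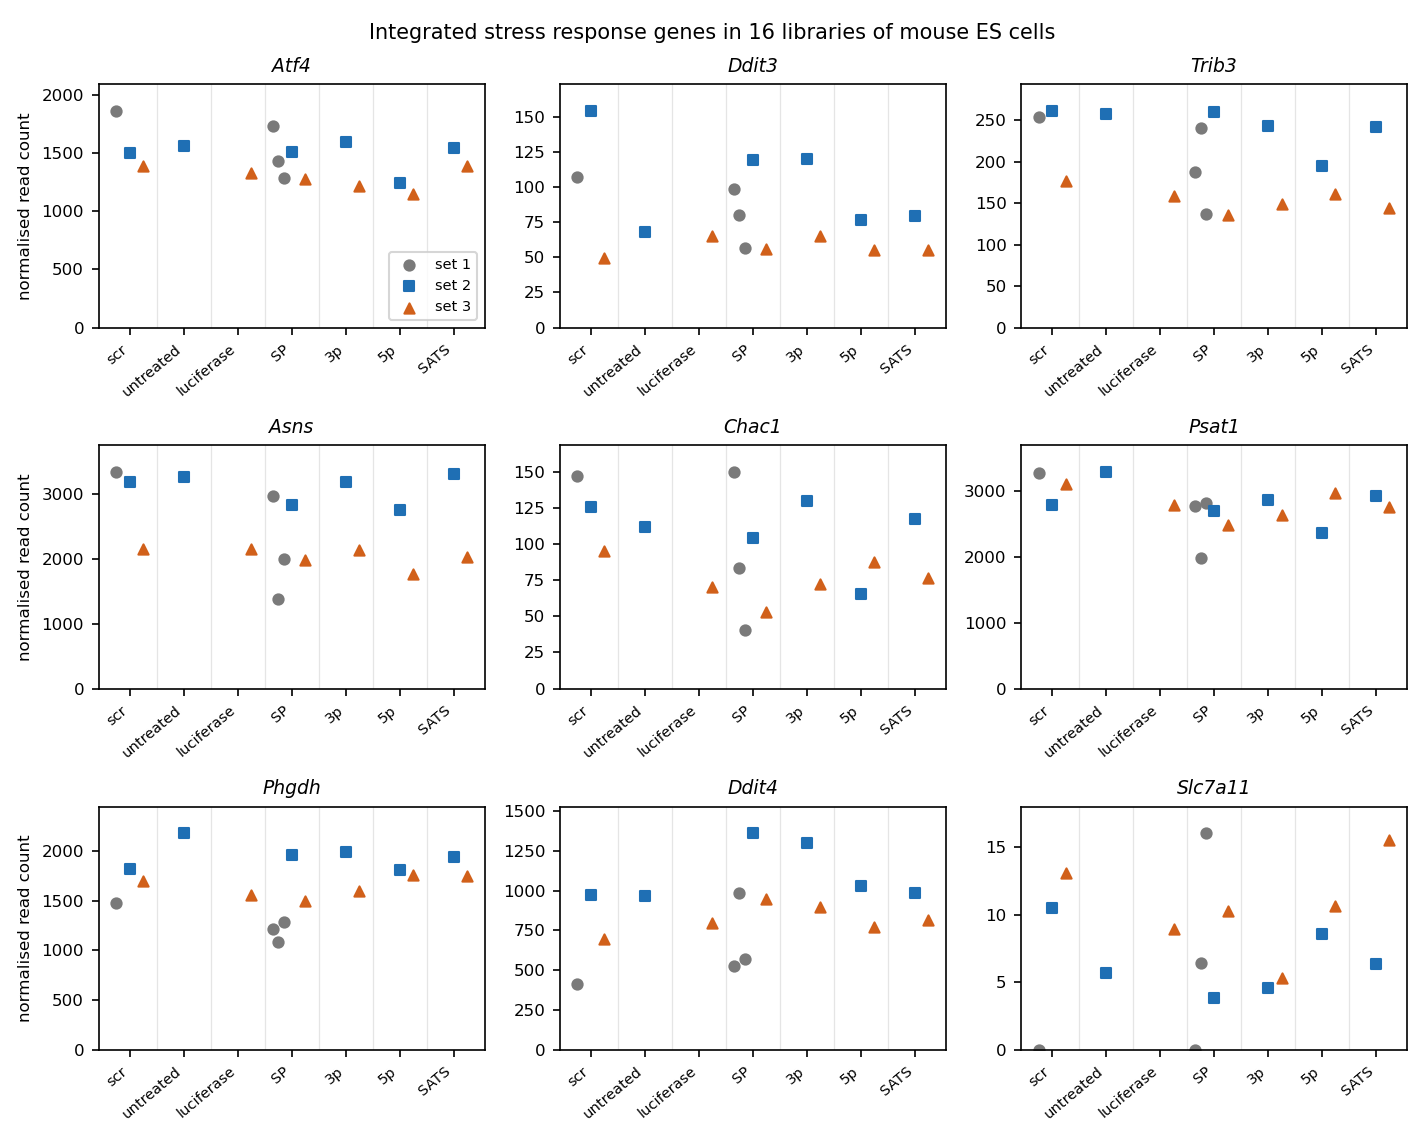
Normalised read count (vertical axis, from 0) of the 9 genes in each of 16 libraries, by treatment (horizontal axis) and replicate set (colour and symbol), with 1 point per library. *Ddit4* is highest in SP within sets 2 and 3, at 1365 and 949, and *Asns* is split by set, with set 2 at 2766 to 3316 and set 3 at 1775 to 2150.

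Values are reads divided by a size factor per library, and fold changes are differences of log2(value + 1) from limma, called where the p adjusted over all genes (Benjamini-Hochberg) was under 0.05. Without pairing, 0 of 9 genes were called in SP over 3 sets (0% of all 15970 genes tested) or in SATS (0% of 16490). The count was also 0 of 9 in SP (0.00606% of all genes in sets 2 and 3), 3p (0.00606%) and 5p (0.0121%). In each of these 5 comparisons 0 of 9 had an unadjusted p under 0.05, by limma and by edgeR on the recovered reads. Of all genes, limma gave 84 of 15970 in SP over 3 sets, and 410, 286, 598 and 650 of 16490 in SP, 3p, 5p and SATS. By edgeR these were 101 of 16650, and 428, 298, 588 and 656 of 17597. With so few genes under that limit, 0 of 9 says nothing about the members. Blocked on the replicate set, limma called 0 of 9 in SP over 3 sets (0%), 1 of 9 in SP of sets 2 and 3 (0.746%), and 0 of 9 in 3p (0.285%), 5p (2.37%) and SATS (2.64%). The unadjusted p of that fit was under 0.05 for 4, 3, 2, 3 and 0 members in the same order, beside 5.85%, 12.5%, 10.4%, 15.7% and 18.8% of all genes. The fit over 3 sets called no gene at all, *Stag1* included (adjusted p = 0.225 without the block and 0.0534 with it, limma), so a miss there says nothing about a member. The median log2 fold change of the 9 genes was −0.15 in SP, −0.05 in 3p, −0.27 in 5p and −0.05 in SATS of sets 2 and 3, where the medians of all genes lay between −0.00 and 0.01.

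**Figure D2:**
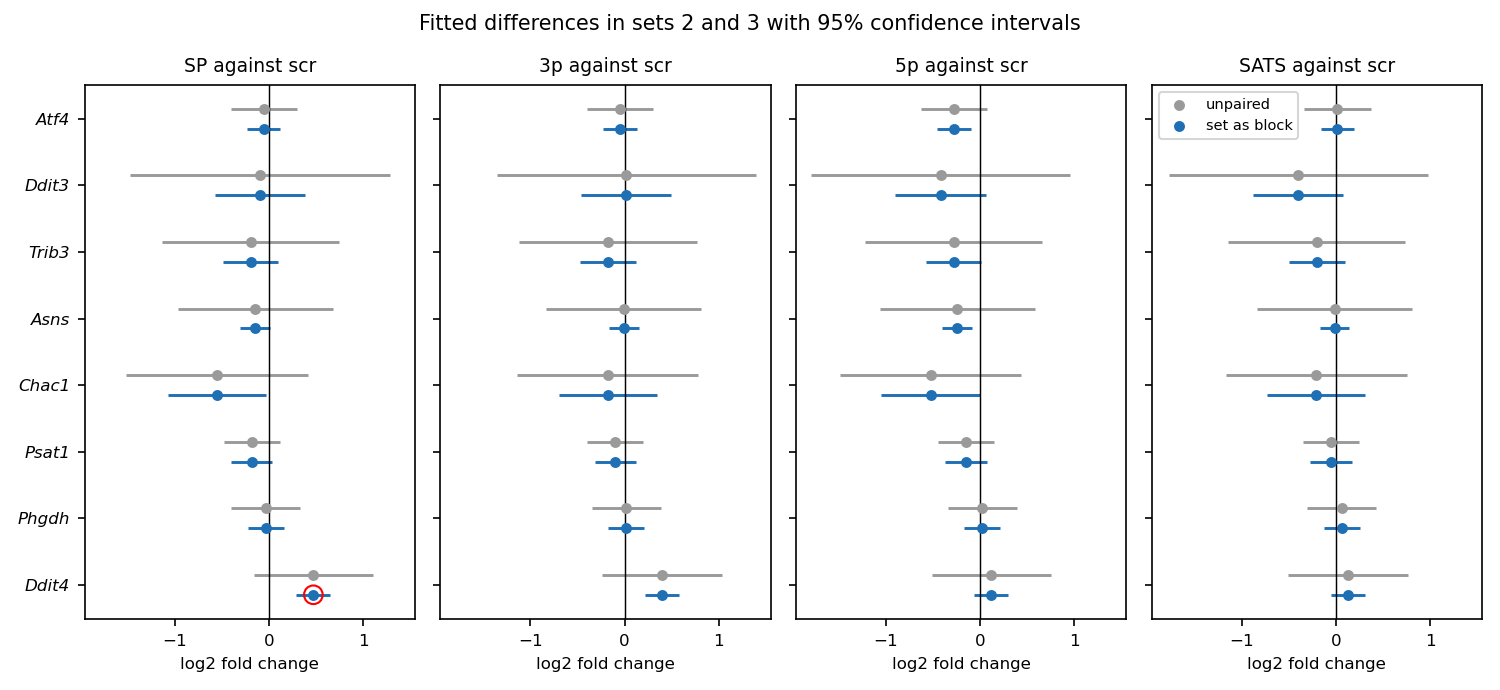
Log2 fold change against scr (horizontal axis) in sets 2 and 3 for 8 of the 9 genes (*Slc7a11* had too few reads), with 95% confidence intervals, from limma without pairing (grey) and with the set as a block (blue). Of the blocked fits, 1 was called (red ring), *Ddit4* in SP at 0.47.

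*Ddit4* (REDD1) encodes an inhibitor of mTORC1 that is induced by amino acid shortage, hypoxia and glucocorticoids, and lies at chr10:59949669-59951834 of GRCm38 on the minus strand. In set 1 its normalised read count was 415 in scr and 526, 987 and 572 in SP libraries 1a, 1b and 1c. In set 2 it was 971 in scr, 1365 in SP, 1300 in 3p, 1028 in 5p, 983 in SATS and 965 in untreated cells. In set 3 it was 693 in scr, 949 in SP, 897 in 3p, 772 in 5p, 816 in SATS and 794 in luciferase. SP was the highest of the 6 libraries in both sets, a pattern held by 6.2% of all genes, and 3p followed it in both. The 5p and SATS libraries were at 101.2% to 117.9% of scr, and the luciferase control was at 114.6% of scr of its set. All 11 knockdown libraries exceeded scr of their set, which 1.53% of genes did.

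On the log2 scale *Ddit4* differed from scr by 0.47 ± 0.08 (SE, n = 2) in SP of sets 2 and 3, with an adjusted p of 0.0192 from limma with the block, and was not called without it. Of the genes called in that comparison, those that rose were 0.23% of all tested. The call rested on both sets: without scr or SP of either set the adjusted p was 0.144 to 0.312 (limma with the block), with the difference between 0.42 and 0.52. The same fit gave 0.40 ± 0.08 in 3p (adjusted p = 0.0739), 0.12 ± 0.08 in 5p (adjusted p = 0.533) and 0.13 ± 0.08 in SATS (adjusted p = 0.444). Over 3 sets the SP difference was 0.56 ± 0.10 with an adjusted p of 0.601 in limma with the block. The other tool, edgeR with the block, called it there (0.55, adjusted p = 0.0057), where it called 0.637% of all genes. With untreated and luciferase libraries as further controls and the block, limma called *Ddit4* in SP (0.43, adjusted p = 0.00506, with 2.32% of all genes called) and in 3p (0.35, adjusted p = 0.025, with 1.31%).

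The knockdowns were also compared with each other, as 6 pairs over 9 genes. *Ddit4* was lower in 5p than in SP by a log2 difference of −0.35 (95% confidence interval −0.53 to −0.17, adjusted p = 0.0253, limma with the block) and lower in SATS than in SP by −0.34 (−0.52 to −0.17, adjusted p = 0.0219). The block called 5.76% and 9.42% of all genes in these 2 comparisons, so a call there was common. With the wider controls both were called as well, beside 7.13% and 11.5% of all genes. Without pairing neither was called, and both calls were lost without SP of set 2 or of set 3 (adjusted p = 0.0819 to 0.190, limma with the block). The call of 5p against SP was also lost without 5p of either set (0.102 and 0.151) and, narrowly, without scr of set 2 (0.0501), and that of SATS against SP without SATS of either set (0.0567 and 0.174). The SP and 3p libraries differed in *Ddit4* by −0.08 (interval −0.26 to 0.10), and 5p and SATS by 0.01 (−0.17 to 0.19). The intervals of 5p and SATS against 3p, −0.46 to −0.10 and −0.45 to −0.09, lay below 0 with adjusted p of 0.0989 and 0.0968 in limma with the block. No other member was called in any of the 6 pairs by that fit, in which 0.097% of genes were called in 3p against SP, 3.26% in 5p against 3p, 3.06% in SATS against 3p and 6.42% in SATS against 5p.

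*Atf4*, the transcription factor of the response (chr15:80255184-80257541, plus strand), had counts of 1868 in scr of set 1 and 1739, 1434 and 1289 in SP 1a, 1b and 1c. In set 2 the counts were 1502 in scr, 1510 in SP, 1599 in 3p, 1241 in 5p, 1544 in SATS and 1563 in untreated cells. In set 3 they were 1393 in scr, 1282 in SP, 1221 in 3p, 1149 in 5p, 1388 in SATS and 1332 in luciferase. The 5p library was the lowest of 6 in each set, as *Asns* was and as 7.59% of all genes were. The log2 difference of 5p from scr was −0.28 ± 0.08 (95% interval −0.45 to −0.10), with an adjusted p of 0.107 in limma with the block. SATS exceeded 5p in *Atf4* by 0.29 ± 0.08, with an adjusted p of 0.0514 in the same fit and of 0.0434 in edgeR with the block, which called 6.55% of all genes there. With untreated and luciferase libraries as further controls, limma with the block called *Atf4* in 5p (−0.27, adjusted p = 0.0183, with 6.71% of all genes called) and in SATS against 5p (adjusted p = 0.0237, with 8.13%). SP, 3p and SATS differed from scr by −0.06, −0.05 and 0.02, each within 1 SE of 0.

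*Ddit3* (CHOP) encodes the partner of ATF4 that is known for its part in stress-induced cell death (chr10:127290774-127296288, plus strand; a second annotated gene of that name overlaps it). Its counts in scr were at opposite ends of the 2 sets. In set 2 scr, at 155, was above all others, with 120 in SP, 120 in 3p, 76.8 in 5p, 79.7 in SATS and 67.9 in untreated cells. In set 3 scr, at 49.6, was below all others, which ran from 55.2 in SATS to 65.6 in 3p. The knockdowns therefore lay below scr in one set and above it in the other, and the untreated and luciferase libraries did so with them. The widest of the fitted differences was −0.42 ± 0.22 in 5p, adjusted p = 0.386 in limma with the block. In set 1 scr had 107 and the SP libraries 98.7, 80.4 and 56.4, on 7 to 25 reads.

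*Trib3*, a pseudokinase that is induced by ATF4 and CHOP and restrains both (chr2:152337422-152344032, minus strand), was below scr of its set in 13 of 13 libraries, untreated and luciferase included. Of all genes 0.808% were. The sizes varied from −0.01 in SP 2 and −0.02 in untreated cells to −0.43 in 5p 2 and −0.89 in SP 1c, on the log2 scale. Its counts were 262 in scr, 260 in SP and 194 in 5p of set 2, and 177 in scr, 136 in SP and 161 in 5p of set 3. Fitted differences ran from −0.18 ± 0.14 in 3p through −0.19 in SP and −0.20 in SATS to −0.28 ± 0.14 in 5p, with none called.

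**Figure D3:**
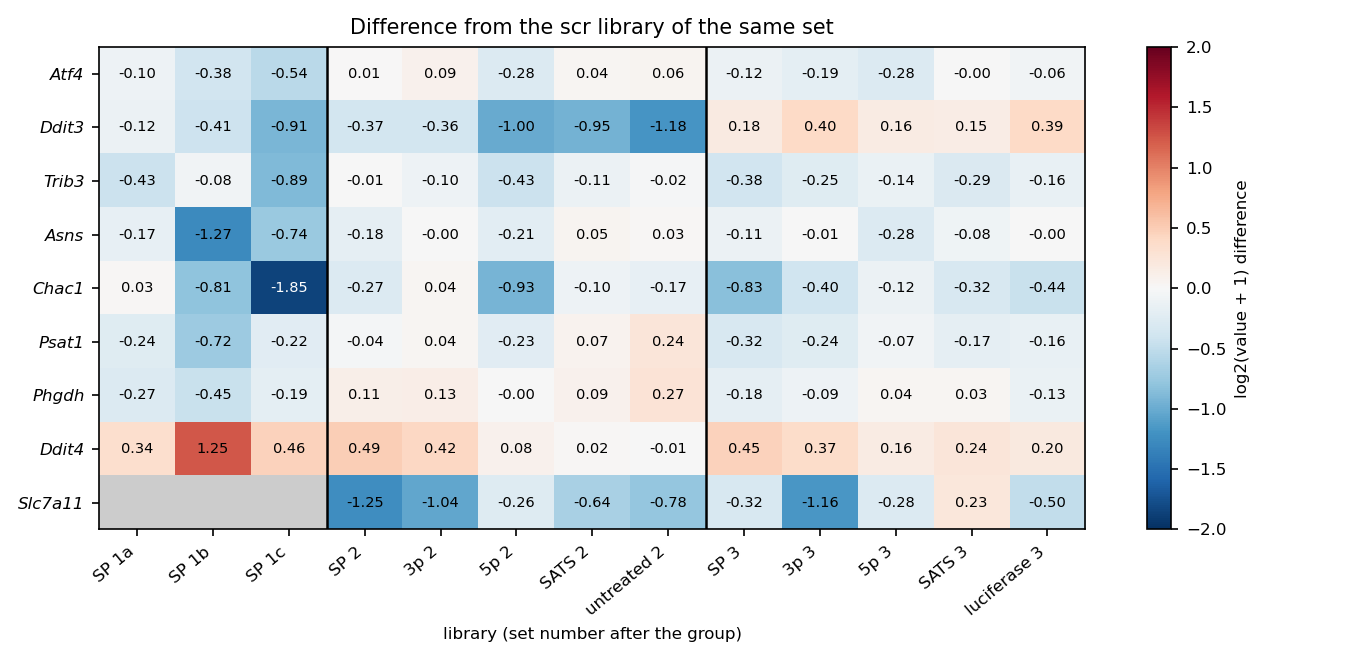
Difference of log2(value + 1) from the scr library of the same set for the 9 genes (rows) in 13 libraries (columns), blue for lower and red for higher, with *Slc7a11* left grey in set 1 because of its 0 to 2 reads. *Trib3* is below 0 in every column, *Ddit4* is above 0 in all but untreated cells (−0.01), and *Ddit3* changes sign between sets 2 and 3.

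Among the genes of amino acid supply, *Asns* (asparagine synthetase, chr6:7675169-7693254, minus strand) was measured with 249 to 9402 reads per library. In set 1 its counts were 3355 in scr and 2980, 1386 and 2005 in SP 1a, 1b and 1c. In set 2 they were 3201 in scr, 2830 in SP, 3195 in 3p, 2766 in 5p, 3316 in SATS and 3265 in untreated cells, and in set 3 they were 2150, 1987, 2136, 1775 and 2036 in the same order and 2150 in luciferase. SP and 5p were the 2 lowest libraries in both sets. The log2 difference was −0.24 ± 0.07 in 5p (interval −0.40 to −0.09, adjusted p = 0.108, limma with the block) and −0.15 ± 0.07 in SP (adjusted p = 0.443), while 3p and SATS lay at −0.01. With the wider controls, limma with the block called *Asns* in 5p (−0.25, adjusted p = 0.014) and in SATS against 5p (0.23, adjusted p = 0.0407). In set 1, SP 1b and SP 1c were at −1.27 and −0.74, and SP 1a was at −0.17. The larger of these came from the 2 libraries that also had the low primitive endoderm sums and the lowest stem cell marker sums of set 1 given above.

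*Phgdh* and *Psat1* encode the enzymes of the first and second steps from glycolysis to serine. *Psat1* (chr19:15904678-15947337, minus strand) had 2780 in scr of set 2, with the other libraries between 2363 in 5p and 3291 in untreated cells. In set 3, scr was the highest at 3102 and SP the lowest at 2483. It was below scr in 5 of 5 SP libraries, by −0.04 to −0.72, and fitted at −0.25 ± 0.09 over 3 sets (adjusted p = 0.759, limma with the block). *Phgdh* (chr3:98313170-98339990, minus strand) ran from 1814 to 2186 in set 2 and from 1501 to 1756 in set 3, and its fitted differences in the 4 knockdowns lay between −0.03 and 0.06. Their 95% intervals in the blocked fit of sets 2 and 3 reached no further than −0.23 and 0.25. This does not cover set 1, where the SP libraries had 1218, 1081 and 1289 against 1473 in scr. Their log2 differences were −0.27 in SP 1a, −0.45 in SP 1b and −0.19 in SP 1c.

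*Chac1* and *Slc7a11* belong to the redox side of the response. *Chac1* (chr2:119351229-119354381, plus strand) encodes an enzyme that breaks down glutathione. Its counts were 147 in scr and 150, 83.6 and 40.3 in SP 1a, 1b and 1c, the last on 5 reads. In sets 2 and 3 scr had 126 and 95.6, SP 104 and 53.3, 3p 130 and 72.2, 5p 65.4 and 87.9, SATS 117 and 76.6, with 112 in untreated and 70.1 in luciferase. SP and 5p were thus each low in 1 set, a different set for each. The fitted difference was −0.55 ± 0.24 in SP (adjusted p = 0.375) and −0.53 ± 0.24 in 5p (adjusted p = 0.314) in limma with the block, and −0.59 ± 0.19 in SP over 3 sets (adjusted p = 0.759). With the block, the value of 5p was 0.03 without 5p of set 2 and −1.09 without 5p of set 3, each resting on 1 library of 5p.

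*Slc7a11* encodes the cystine importer subunit xCT (chr3:49892526-50443614, minus strand). It was barely expressed, with 0, 0, 2 and 2 reads in scr and SP 1a, 1b and 1c of set 1 and 8 to 43 reads in the other 12 libraries. The normalised read count was 10.5 in scr of set 2 and 3.83 to 8.59 in the other libraries, and 13.1 in scr of set 3 and 5.29 to 15.5 in the others. In set 1 it was under the limit of 3 reads in all libraries, so no fold is given.

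Read by library, 6 or more of the 9 genes were below scr in SP 1a (6), 1b (7) and 1c (7), SP 2 (6), 5p 2 (8), SP 3 (7), 3p 3 (7), 5p 3 (6) and luciferase 3 (7). Of all genes, 43.7% to 53.6% were below scr in a library. The luciferase library carried no siRNA to *Stag1*, and all libraries of a set share 1 scr library. In both of sets 2 and 3, 5 of 9 genes were below scr in SP (29% of all genes), 3 in 3p (29.7%), 6 in 5p (30.1%) and 2 in SATS (33.8%). In SP and in 3p, 1 of 9, *Ddit4*, was above scr in both sets (28.5% and 25.9% of all genes), as it was in 5p (32.7%) and, with *Phgdh*, in SATS (32.4%). In all 5 SP libraries *Trib3*, *Asns* and *Psat1* were below scr (9.06% of genes) and *Ddit4* was above it (7.85%).

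Several members differed between the replicate sets. For 5 of the 9 genes, *Ddit3*, *Trib3*, *Asns*, *Phgdh* and *Ddit4*, the 6 libraries of set 2 did not overlap the 6 of set 3, and set 2 was the higher in each. Of all genes 26.1% were separated in this way. *Asns* had 2766 to 3316 in set 2 and 1775 to 2150 in set 3, and *Ddit4* 965 to 1365 against 693 to 949. The fibroblast and trophectoderm marker sums given above were also higher in set 2, and their part was not tested. Reads on genes overlapped between these sets, at 32137666 to 42579853 in set 2 and 34151622 to 45660840 in set 3.

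Set-centred log2 values over the 12 libraries of sets 2 and 3 described which members varied together. *Trib3* and *Chac1* had a Pearson r of 0.86, *Chac1* and *Psat1* and *Trib3* and *Psat1* of 0.80, *Psat1* and *Phgdh* of 0.79 and *Atf4* and *Asns* of 0.72. *Ddit4* had an r of −0.64 to 0.42 to the other 8 and a negative r to 6, and *Slc7a11*, on few reads, had a negative r to 7. The −0.64 was that of this pair. Over all 36 pairs the median r was 0.09. The libraries share scr, depth and composition within a set, and no p is given. Of 11018 other genes whose mean value was 50 or more, those most like the mean of the 9 were *Rplp0* (r = 0.91), *Slc35b1* (0.89), *Zfp593* (0.85), *Dhrs1* (0.85) and *Tprkb* (0.83). That mean was taken over unscaled log2 values, so the members that vary most weigh most in it. *Slc7a11*, on few reads, is one of these, so the ranking may in part follow counting error.

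ATF4 binds DNA with C/EBP partners at a composite site, the C/EBP-ATF response element. To show which members carry its letters at their start, the RefSeq promoter windows (build GRCm38.p6, 250 bases before to 50 after the start) were searched for TGATGNAA on both strands. All 9 genes had a window, and 4 of 9 genes held a match in any of theirs. Of the 32851 windows in RefSeq, each counted on its own and not by gene, 3.97% held a match. The windows of *Psat1*, at chr19:15924573-15924872 and chr19:15925010-15925309, lie inside the gene span given above and not at its GENCODE start. The 4 are shown 5′ to 3′ on the strand of the gene, with the match in capitals.
*Asns*, match from base −23, chr6:7693214-7693243: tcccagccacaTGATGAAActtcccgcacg
*Trib3*, match from base 15, chr2:152344028-152344057: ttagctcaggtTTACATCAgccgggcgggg
*Chac1*, match from base −193, chr2:119351038-119351067: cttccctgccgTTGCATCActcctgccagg
*Slc7a11*, matches from bases −66 and −47, chr3:50443647-50443685: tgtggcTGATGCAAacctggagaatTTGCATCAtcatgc
Base 1 is the RefSeq start site, which is not the GENCODE start for every gene. By the gene spans given above, the printed window of *Asns* lies inside the gene, and the match of *Trib3* lies before its GENCODE start. The matches of *Trib3* and *Chac1* and the second of *Slc7a11* read on the opposite strand. *Atf4*, *Ddit3*, *Psat1*, *Phgdh* and *Ddit4* held no match in this window, and bases outside it were not searched. All 4 with a match were below scr in both of sets 2 and 3 in SP (29% of all genes) and in 5p (30.1%). So was *Psat1*, with no match, and in 5p also *Atf4*. In 3p and SATS not all 4 were. None of the 4 was called against scr in limma with the block, and *Slc7a11* had few reads. Whether these letters bear on the differences was not tested.

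Around the 9 genes, 8 further lists of the stress pathways held 130 genes, of which 129 were tested in sets 2 and 3. With the set as a block limma called 3 of 129 in SP, all lower, 0 in 3p, 7 in 5p (6 lower and 1 higher) and 2 in SATS, both lower. This is 2.33%, 0%, 5.43% and 1.55% of the listed genes, beside the percentages of all genes given above. Without pairing none was called, and in SP over 3 sets 0 of 128 were called with the block.

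**Figure D4:**
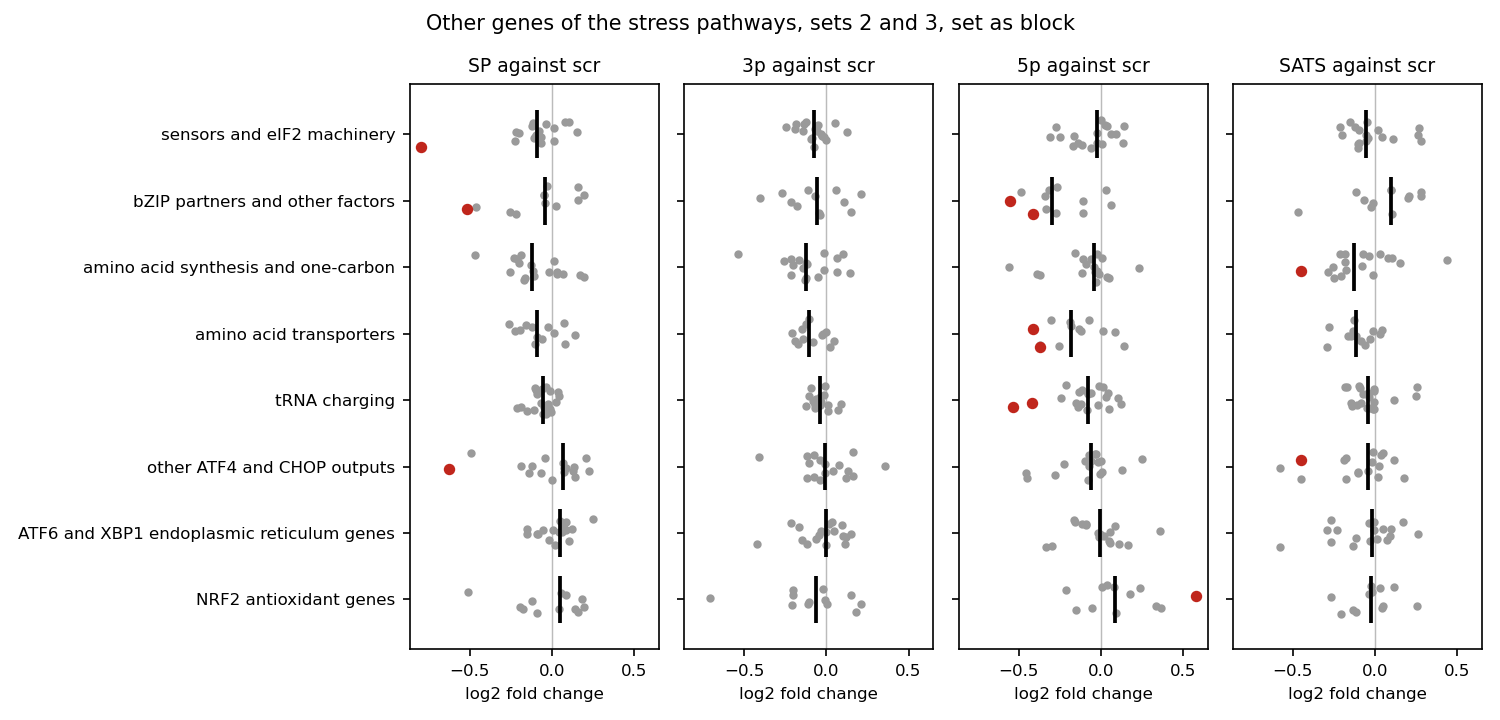
Log2 fold change against scr (horizontal axis) in sets 2 and 3, set as block, for each gene of 8 lists (rows), with called genes in red and the list's median as a black bar. In 5p 6 of the 7 called genes lie to the left, from −0.37 to −0.55, and in SP *Impact* stands apart at −0.80.

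The list of sensors and eIF2 machinery held 18 genes, of which 1 was called in SP and 0 in the other knockdowns. *Impact*, which encodes a protein that holds back the kinase GCN2, fell in SP, with counts of 1971 and 2230 in SP of sets 2 and 3 against 3378 and 3926 in scr. The untreated library of set 2 had 2769 and the luciferase library of set 3 had 4513. Its log2 difference was −0.80 ± 0.07 (adjusted p = 5.94e-05, limma with the block), and it was called without each of the 10 libraries in turn. In set 1 its counts were 3422 in scr and 1518, 2226 and 2859 in SP 1a, 1b and 1c. The kinases themselves, *Eif2ak1* (HRI), *Eif2ak2* (PKR), *Eif2ak3* (PERK) and *Eif2ak4* (GCN2), were called in no knockdown, with differences of −0.28 to 0.26. *Eif2s1*, the phosphorylated subunit of eIF2, lay at 0.28 ± 0.07 in SATS (adjusted p = 0.0653, limma with the block). *Ppp1r15a* (GADD34) and *Ppp1r15b*, which direct the phosphatase that reverses the mark, lay at −0.31 and −0.16 in 5p, uncalled.

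Of the 12 bZIP partners and other factors, 2 fell in 5p and 1 in SP. *Atf5*, a relative of ATF4 with the same kind of translational control, had 144 and 119 in 5p of sets 2 and 3 against 227 and 163 in scr (−0.55 ± 0.12, adjusted p = 0.0253, limma with the block). *Nfe2l1*, an activator of proteasome genes, differed by −0.41 ± 0.07 in 5p. *Maff*, a small MAF protein, differed by −0.52 ± 0.11 in SP of sets 2 and 3 (adjusted p = 0.0411, limma with the block). In set 1 *Maff* did not fall in the same way, at −0.04, −0.004 and 0.65 from scr in SP 1a, 1b and 1c, on few reads. Over 3 sets it was at −0.27 ± 0.19, uncalled. The median of the list was −0.29 in 5p and −0.05 in SP.

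Among 13 amino acid transporters, *Slc38a4* (−0.41 ± 0.07) and *Slc7a1* (−0.37 ± 0.09), which import neutral and cationic amino acids, fell in 5p. Among 21 genes of tRNA charging, *Xpot*, the exporter of tRNA from the nucleus, and *Yars*, the tyrosyl-tRNA synthetase, fell in 5p. *Xpot* had 2602 and 2442 in 5p of sets 2 and 3, against 3615 and 3700 in scr (−0.54 ± 0.07, adjusted p = 0.0015, limma with the block), and 3349 to 3579 in the other libraries of the 2 sets. *Yars* differed by −0.42 ± 0.09. Of 18 genes of amino acid synthesis and one-carbon metabolism, *Glul*, glutamine synthetase, fell in SATS (−0.45 ± 0.09), and *Cth* lay at 0.43 ± 0.11 in SATS, uncalled (adjusted p = 0.0562, limma with the block).

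Of 18 other ATF4 and CHOP outputs, 17 were tested, and *Ndrg1*, a gene induced by several stresses, fell in SP (−0.63 ± 0.11) and SATS (−0.45 ± 0.11), with *Ero1l* at −0.45 ± 0.13 in SATS, uncalled. In the neighbouring branches, 0 of 18 ATF6 and XBP1 endoplasmic reticulum genes were called in any knockdown, with 0, 2, 3 and 6 at an unadjusted p under 0.05 in SP, 3p, 5p and SATS, beside the 12.5%, 10.4%, 15.7% and 18.8% of all genes. Its named genes *Hyou1* and *Derl3* lay at −0.27 and −0.58 in SATS. Of 12 NRF2 antioxidant genes, *Slc48a1*, a haem transporter, rose in 5p (0.58 ± 0.12), and *Fth1*, the ferritin heavy chain, lay at 0.34 ± 0.09 in 5p, uncalled. The list medians in the 4 knockdowns lay between −0.13 and 0.09 for 6 of the 8 lists, and the bZIP factors and the transporters went lower, to −0.29 and −0.18 in 5p.

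Of the 12 list calls, *Impact* in SP was the one that held without every library in turn. *Xpot* was lost without scr of set 3 (adjusted p = 0.0644), and the other 10 without scr of set 2 and without scr of set 3, and also without at least 1 library of the knockdown itself (highest adjusted p of each 0.108 to 0.449, limma with the block).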

How the data were processed

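RNA of serum-grown mESCs was depleted of rRNA, sequenced by the authors, aligned to mm10 with HISAT2 and counted per gene with featureCounts, with a strand setting stated for paired-end libraries. Which libraries were paired-end is not given in the sources used here. The values deposited for all sets are a normalised signal, reads divided by a DESeq2 (1.14.1) size factor. A second deposited table holds set 1 as a signal in CPM from edgeR (3.16.5), scaled by effective library sizes, used as an alternative. *Slc7a11* has no row in it. Values of a library were whole multiples of the value of 1 read (100% within 0.01), which gave reads, depths and limits of 3 reads. Limits cover counting error only.

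Groups and set numbers came from the labels. limma 3.58.1 in R 4.3.3 (lmFit, eBayes with trend) was run on log2(value + 1), which understates changes of low genes, with Benjamini-Hochberg adjustment over all genes whose values summed to 10 or more. SP was compared with scr over 3 sets, with SP 1a to 1c averaged to 1 sample, and the knockdowns over the 10 libraries of scr, SP, 3p, 5p and SATS in sets 2 and 3. The main fit had no block, as the methods name none. The set numbers of the labels pair the samples: deviations from group means correlated within sets at 0.76 to 0.82 in 3 pairs over 3 sets and at 0.80 to 0.93 in 10 pairs of groups in sets 2 and 3 (Pearson, over 11058 genes). The blocked fit is therefore given beside the main one. Alternatives were edgeR 4.0.16 on recovered reads, other pseudocounts and filters, rescaling without *Rn45s* and *Lars2*, wider controls and leaving out each library. The fits were tested on simulated data.

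The members, lists and tests were chosen with earlier results of these data known. Named list genes are the 2 with the smallest blocked p of each list in any knockdown, the eIF2 kinases, *Ppp1r15a*, *Ppp1r15b* and *Atf5*. Gene positions are from GENCODE on GRCm38, the assembly of mm10, and promoters from RefSeq.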

Additional observations from a re-analysis of the deposited data

How the results depend on the processing

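Without pairing, no limma or edgeR fit called a member. With the replicate block the count of called members moved from 0 to 1 in SP of sets 2 and 3 and from 0 to 2 over the 6 pairs of knockdowns. These counts were also 1 and 2 with the block and a pseudocount of 0.1 or 10 or rescaling without *Rn45s* and *Lars2*, 1 and 3 with the block and a mean of 50 or more (combinations chosen after seeing the data), and 1 and 3 in edgeR with the block, which gave 1 in SP over 3 sets. With untreated and luciferase libraries as further controls and the block, they were 1 in SP, 1 in 3p, 2 in 5p (*Atf4* and *Asns*) and 4 between knockdowns, where 1.31% to 11.5% of all genes were called. Over all genes the block moved the limma calls from 1 to 123 in SP, 1 to 47 in 3p, 2 to 391 in 5p and 0 to 436 in SATS. Leaving out each library in turn, without and with the block, gave 0 to 2 members in SP over 3 sets, 0 to 1 in SP and in 5p of sets 2 and 3, and 0 to 3 between knockdowns. The 2 were *Ddit4* and *Chac1* with the block and without scr of set 1, which leaves that set with no control. In the fits of sets 2 and 3, leaving out a library leaves its group with 1 library, so a call there is weak. The cause of the other changes was not tested.

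Some differences turned sign. *Asns* in 3p was 0.0051 when rescaled, without and with the block, and 0.00095 in edgeR, and *Ddit4* in SATS against 5p was −0.045 when rescaled, without and with the block. Leaving out each library in turn gave, against scr, −0.66 to 0.15 for *Ddit3* in SP over 3 sets, −0.66 to 0.27 for *Trib3* and −0.43 to 0.14 for *Asns* in SP, −0.53 to 0.18 for *Trib3* and −0.30 to 0.28 for *Asns* in 3p, and in 5p −0.56 to 0.076 for *Asns*, −1.09 to 0.033 for *Chac1*, −0.33 to 0.032 for *Psat1*, −0.12 to 0.36 for *Ddit4* and −0.84 to 0.11 for *Slc7a1*. In SATS it gave −0.57 to 0.17 for *Trib3*, −0.51 to 0.098 for *Chac1*, −0.012 to 0.14 for *Phgdh* and −0.12 to 0.37 for *Ddit4*. Between knockdowns it gave −0.34 to 0.19 for *Ddit4* in 3p against SP, −0.20 to 0.21 in SATS against 5p, and −0.12 to 0.58 for *Asns* in SATS against 5p. Of the differences listed in this paragraph, the sign turned with the block for *Asns* in 3p, *Chac1* and *Psat1* in 5p, *Phgdh* in SATS, and *Ddit4* in SATS against 5p. The list of turns is not complete, and other small differences can turn sign as well.

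Depth limits set 1, where *Ddit3* and *Chac1* rest on 5 to 32 reads per library. The edgeR-scaled table of set 1 gave *Ddit4* at 0.34, 1.26 and 0.47 in SP 1a, 1b and 1c.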

Other observations

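The called genes of the stress pathway lists were also compared between knockdowns, a choice made after their values were seen. *Impact* was higher than in SP by 0.72 in 3p (95% interval 0.57 to 0.87, adjusted p = 0.00104), 0.89 in 5p (0.74 to 1.04, adjusted p = 1.46e-05) and 0.70 in SATS (0.55 to 0.85, adjusted p = 0.000118), on the log2 scale in limma with the replicate block. *Xpot* differed in 5p by −0.48 from SP (adjusted p = 0.00172) and by −0.41 from 3p (adjusted p = 0.00575), and SATS exceeded 5p by 0.44 (adjusted p = 0.00309), by the same limma fit. *Slc38a4*, *Nfe2l1* and *Atf5* were likewise called lower in 5p than in each of SP, 3p and SATS, with adjusted p of 0.00231 to 0.0359, 0.000711 to 0.04 and 0.023 to 0.0428. *Yars* was called in 5p against SATS (adjusted p = 0.0264) and not against SP (0.0529) or 3p (0.0729). *Glul* and *Slc48a1* were called in SATS against 5p (adjusted p = 0.0155 and 0.0383) and *Maff* in SATS against SP (0.0192), each in no other pair, and *Slc7a1* and *Ndrg1* in none. Each knockdown had 1 library per set in these comparisons. The genes had been picked by their calls in these same libraries, so the pairs are no separate support. Of all genes, the same fit called 0.097% in 3p against SP, 5.76% in 5p against SP and 9.42% in SATS against SP. It called 3.26% in 5p against 3p and 6.42% in SATS against 5p.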
